A study of Caenorhabditis elegans with 10 samples.

Results

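The comparison described here asks whether a RAF kinase mutant and the wild type of Caenorhabditis elegans differ in how their embryos' RNA responds to salt. It is the interaction of genotype and salt: the change between 500 mM and 50 mM NaCl in lin-45 embryos minus the same change in N2 embryos. It uses 8 of the series' 10 libraries, in 4 groups of 2, and all 14802 genes that passed a filter on low counts, of 45461 in the deposited table. The first group, called lin-45 500 mM, is lin-45(n2018) embryos placed on 500 mM NaCl, and the second, lin-45 50 mM, is embryos of the same strain on 50 mM. The other groups, N2 500 mM and N2 50 mM, are wild-type embryos on the same concentrations. The parents of all 8 libraries grew on 50 mM NaCl, and all embryos were collected 3 hours after the egg preparation. The mutant is represented by 1 allele, and the developmental stage of the embryos is not given in the sources used here. Polyadenylated RNA was sequenced as read pairs. Whether the replicates were grown as separate cultures is not stated in the labels, and p-values therefore measure a spread between libraries that may be technical.

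As background, a worm that loses water to a salty medium makes glycerol and takes up other small organic solutes, which balance the salt outside without disturbing proteins. Glycerol 3-phosphate dehydrogenase, encoded by gpdh-1 and gpdh-2, catalyses the committed step, and transcription of gpdh-1 is the usual readout of the osmotic response. In adults, loss of the collagens that form the ring-shaped furrows of the cuticle, or of osm-7, osm-8 or osr-1, turns this response on without salt. LIN-45 is the worm's RAF kinase, which passes the signal of RAS through the kinase MEK to ERK and is known for its part in vulval induction, germ cell progression and excretory duct fate.

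The 8 libraries held 22138066 to 32066571 counts and counts for 18843 to 19648 genes each. Levels are given in CPM, counts relative to the library's total, scaled by the trimmed mean of M values (TMM). The scaling factors were lowest in lin-45 50 mM, at 0.923 and 0.960. The lin-45 transcript itself had 96.7 and 104 CPM in lin-45 500 mM, 118 and 119 CPM in lin-45 50 mM, 88.6 and 83 CPM in N2 500 mM, and 93 and 95 CPM in N2 50 mM. It was present in every library, and its interaction of -0.11 ± 0.13 (adjusted p = 0.563) in edgeR's test was not called. The level of the transcript does not check the allele. The 2 lin-45 50 mM libraries differed from each other: of all tested genes, 674 were at least 2-fold higher in replicate 2 and 96 in replicate 1. Of the 1801 genes whose salt effect was called more positive in lin-45 than in N2, 347 were at least 2-fold higher in replicate 2 than in replicate 1 and 0 the other way round. Among the same 1801 genes, the number at least 2-fold apart was 4 in lin-45 500 mM, 12 in N2 500 mM and 0 in N2 50 mM. Replicate 2 of lin-45 50 mM was the closer of the pair to N2 50 mM for these genes.

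Across all genes, 3912 of 14802, or 26.4%, had a salt effect that differed between lin-45 and N2 at an adjusted p of at most 0.05 (edgeR's quasi-likelihood F test, Benjamini-Hochberg adjustment over all tested genes). Of these, 1801 genes (12.2%) responded to salt more positively in lin-45, a positive interaction, and 2111 (14.3%) more negatively. An interaction of 1 on the log2 scale means that the ratio of 500 to 50 mM was 2-fold larger in lin-45 than in N2. The positive genes were further from 0, with a median of 1.14, and the negative ones had a median of -0.68, while the median over all tested genes was -0.06 and the median standard error 0.21. The interaction reached at least 2-fold in 1023 positive and 463 negative genes, and at least 4-fold in 307 and 87. The split between positive and negative calls moved with the settings: 46% of the calls were positive, against 57.3% with relative log expression (RLE) factors or DESeq2, 65.8% with upper-quartile factors, 70.9% without the filter, 75% with edgeR's own filter and 62.5% with the 8 libraries alone. The split moved furthest without lin-45 500 mM replicate 2, where 1470 calls were positive (81.5%) and 333 negative. Leaving out 1 library lowered the number of calls to 787 without N2 50 mM replicate 1, 1110 without N2 500 mM replicate 2, 1675 and 1803 without lin-45 500 mM replicate 1 and 2, 1890 without lin-45 50 mM replicate 1, 2125 without N2 50 mM replicate 2 and 2479 without N2 500 mM replicate 1. No gene called both with and without a library had the opposite sign.

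**Figure D1:**
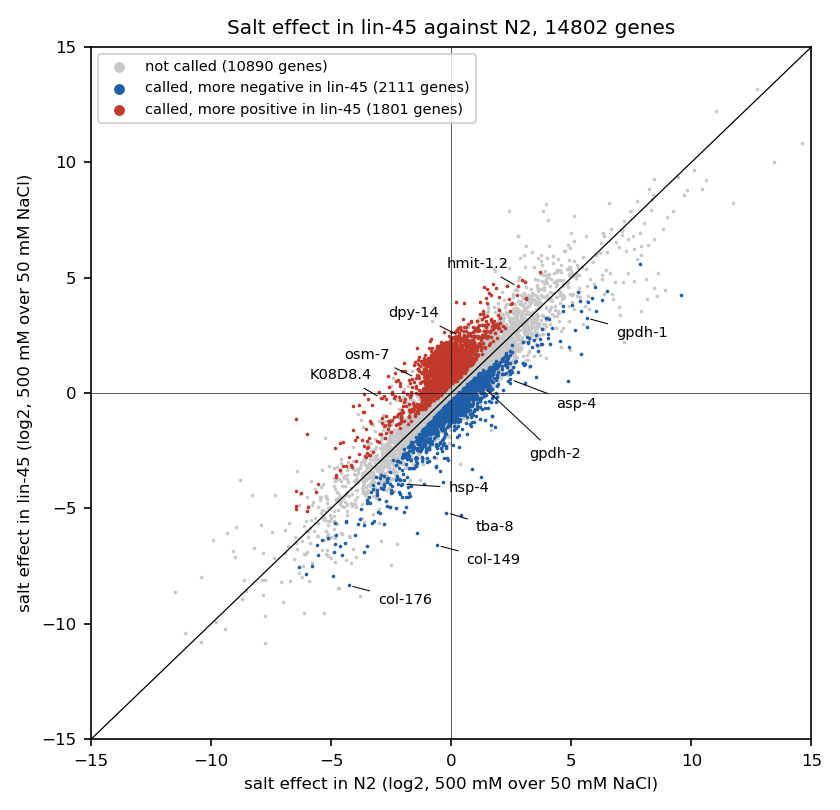
Salt effect in lin-45 (vertical axis) against that in N2 (horizontal axis), both as log2 of 500 over 50 mM NaCl, for each of the 14802 tested genes. Red points are the 1801 genes with a positive interaction, which lie above the diagonal, and blue points the 2111 with a negative one, which lie below it.

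More genes differed between the strains on 50 mM than on 500 mM. Of the 14802 genes, 8038 (54.3%) differed between lin-45 and N2 on 50 mM, and 961 (6.49%) on 500 mM. On 50 mM lin-45 was higher for 4921 genes and lower for 3117, a split that moved with the settings, to 3873 and 3680 with upper-quartile factors, 3283 and 3822 without the filter, 3370 and 4042 with edgeR's own filter, 4203 and 4363 with the 8 libraries alone and 2996 and 3720 without lin-45 500 mM replicate 2. The number of genes called on 50 mM was 5188 without N2 50 mM replicate 1, and that on 500 mM 2175 with the 8 libraries alone and 267, 240, 252 and 390 without replicates 1 and 2 of N2 500 mM and replicates 1 and 2 of lin-45 500 mM. A positive interaction tends by its definition to put the lowest mean in lin-45 50 mM or N2 500 mM, and a negative one the highest, so the next counts describe the called genes only. The group with the lowest mean was lin-45 50 mM for 1469 of the 1801 positive genes (81.6%) and N2 500 mM for 271, and the first share was 80.1% to 88.9% when any 1 library was left out. The group with the highest mean was lin-45 50 mM for 1530 of the 2111 negative genes (72.5%), with a range of 70.5% to 78.6%, and N2 500 mM for 453. Positive genes had a median over genes of 28.7 CPM in lin-45 500 mM, 15.5 CPM in lin-45 50 mM, 32.5 CPM in N2 500 mM and 39.2 CPM in N2 50 mM. Negative genes had 34.6, 50.5, 35.4 and 32.7 CPM in the same 4 groups. The median strain difference, lin-45 over N2, was -1.24 on 50 mM and -0.20 on 500 mM in the positive genes, and 0.65 on 50 mM and -0.05 on 500 mM in the negative ones. The strain difference on 50 mM enters the interaction itself, so these medians describe the calls and do not test them.

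The genes divide by what salt did in each strain. Salt raised 4949 genes and lowered 5161 in lin-45 (68.3% called), and raised 4653 and lowered 4745 in N2 (63.5% called). The largest positive class, 780 genes, rose in lin-45 and was not called in N2. A further 351 rose in both strains, 305 fell in N2 and were not called in lin-45, 202 rose in lin-45 and fell in N2, and 151 fell in both. Among the negative genes, 639 fell in lin-45 and were not called in N2, 600 fell in both strains, 443 rose in N2 and were not called in lin-45, 287 rose in both, and 125 fell in lin-45 and rose in N2. In the paragraphs that follow, each interaction is log2 ± standard error with the adjusted p of edgeR's test. List counts of the interaction in the main fit compare with 12.2% positive and 14.3% negative of all tested genes. Unless a sentence says otherwise, a gene named with an interaction was also called when any 1 of the 8 libraries was left out.

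Of the 5 glycerol synthesis genes, 3 were called higher in lin-45 than in N2 on 50 mM. Of the 11 aquaporins, which carry water or glycerol, 4 were called higher and 2 lower on 50 mM. The shares of all tested genes in that comparison were 33.2% higher and 21.1% lower. Of the 5 glycerol synthesis genes, 3 had a negative interaction and 0 a positive one, with a list median of -0.85. All 5 rose with salt in N2 and 3 in lin-45, against 31.4% and 33.4% of all tested genes. gpdh-1 (chromosome I, 14075823 to 14078202 in build ce10) had 109 and 107 CPM in lin-45 500 mM, 13.2 and 9.62 CPM in lin-45 50 mM, 187 and 180.0 CPM in N2 500 mM, and 4.05 and 3.34 CPM in N2 50 mM. Its libraries did not overlap between any of the 4 groups: the level was higher in lin-45 than in N2 on 50 mM and lower on 500 mM. The salt effect on the log2 scale was 3.25 in lin-45 and 5.64 in N2, with an interaction of -2.40 ± 0.24 (adjusted p = 0.00224). Reads of gpdh-1 may include those of gadr-6, which overlaps it on the other strand, because the strandedness of the counting is not given in the sources used here. gpdh-2 (chromosome III, 9853987 to 9859095) had 363 and 332 CPM in lin-45 500 mM, 317 and 268 CPM in lin-45 50 mM, 318 and 352 CPM in N2 500 mM, and 125 and 137 CPM in N2 50 mM. Here N2 50 mM stood alone at the low end, the lin-45 50 mM libraries lay just below those of both stressed groups, and salt was not called in lin-45. The interaction of gpdh-2 was -1.11 ± 0.15 (adjusted p = 0.00541), with a salt effect of 0.25 in lin-45 and 1.35 in N2. The third negative gene was pgph-2, a glycerol 3-phosphate phosphatase listed as F44E7.2, at -0.85 ± 0.27 (adjusted p = 0.0466). Its call held in 1 of the 8 settings that leave out a library, without N2 50 mM replicate 2, and was lost in the other 7, with the highest adjusted p, 0.177, without lin-45 500 mM replicate 2. It was also lost with RLE or upper-quartile factors, without the filter, with edgeR's own filter and with a term for the replicate number.

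hmit-1.1, hmit-1.2 and hmit-1.3 encode H+/myo-inositol cotransporters, which import a solute that cells gather under osmotic stress, and 2 of the 3 had a positive interaction. hmit-1.1 had 198 and 214 CPM in lin-45 500 mM, 15.1 and 13.4 CPM in lin-45 50 mM, 170.4 and 148 CPM in N2 500 mM, and 27.7 and 28.9 CPM in N2 50 mM. hmit-1.2, its neighbour (the pair spans chromosome V, 18516760 to 18529128), had 178 and 181 CPM in lin-45 500 mM, 5.49 and 8.9 CPM in lin-45 50 mM, 116 and 122 CPM in N2 500 mM, and 17.6 and 17.5 CPM in N2 50 mM. In both genes the lin-45 50 mM libraries were the lowest, the N2 50 mM libraries next, and both stressed groups far above. The interaction was 1.36 ± 0.16 (adjusted p = 0.00366) for hmit-1.1 and 1.86 ± 0.28 (adjusted p = 0.00644) for hmit-1.2. Of the 11 aquaporins, 1 had a positive and 1 a negative interaction (9.09% each), against 12.2% and 14.3% of all tested genes. The positive count was 0 in 6 of the 8 settings that leave out a library and 2 without lin-45 500 mM replicate 2, and the negative count 0 in 6 of the 8. With the 8 libraries alone the 2 counts were 3 and 0.

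Of 9 regulators of the osmotic response, 4 had a positive interaction (44.4%) and 0 a negative one, with a list median of 0.13. The shares of all tested genes were 12.2% and 14.3%. The remaining members were not called, and the lowest interaction in the list was -0.89. osm-7, which encodes a secreted protein, had 64.3 and 69.7 CPM in lin-45 500 mM, 32.7 and 51.4 CPM in lin-45 50 mM, 62.8 and 60.0 CPM in N2 500 mM, and 181 and 164 CPM in N2 50 mM. osm-8, which encodes a mucin-like secreted protein, had 20.5 and 22.7 CPM in lin-45 500 mM, 2.08 and 7.63 CPM in lin-45 50 mM, 35.3 and 30.4 CPM in N2 500 mM, and 42.9 and 34.5 CPM in N2 50 mM. osr-1, a regulator of glycerol accumulation, had 21.3 and 22.5 CPM in lin-45 500 mM, 2.82 and 9.21 CPM in lin-45 50 mM, 40.5 and 34.2 CPM in N2 500 mM, and 59.8 and 52.4 CPM in N2 50 mM. In all 3 genes N2 50 mM was highest and lin-45 50 mM lowest, and the libraries of the stressed groups lay between, apart from osm-8, where 1 N2 500 mM library exceeded 1 N2 50 mM library. ptr-23, a patched-related protein that acts with osm-8, had 176 and 176 CPM in lin-45 500 mM, 117 and 137 CPM in lin-45 50 mM, 177 and 144 CPM in N2 500 mM, and 234 and 224 CPM in N2 50 mM. The interactions were 2.16 ± 0.26 (adjusted p = 0.00436) for osm-7, 2.34 ± 0.55 (adjusted p = 0.0189) for osm-8, 2.41 ± 0.51 (adjusted p = 0.0141) for osr-1 and 0.98 ± 0.19 (adjusted p = 0.0112) for ptr-23. The list count fell to 1 without N2 50 mM replicate 1 and to 2 without N2 500 mM replicate 2. Without N2 50 mM replicate 1 the adjusted p was 0.0773 for osm-8, 0.0613 for osr-1 and 0.0525 for ptr-23, and osm-8, which overlaps npp-21 on the other strand, was also lost without N2 500 mM replicate 2 and without either lin-45 500 mM library. osr-1 was also lost without N2 500 mM replicate 2, at 0.0611. The lin-45 50 mM pair also set the sizes: without its replicate 1 the interaction was 1.73 for osm-8 and 1.83 for osr-1, and without its replicate 2 it was 3.6 and 3.53. The negative count of the list was 2 with the 8 libraries alone and 1 with DESeq2 or without lin-45 50 mM replicate 2.

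**Figure D2:**
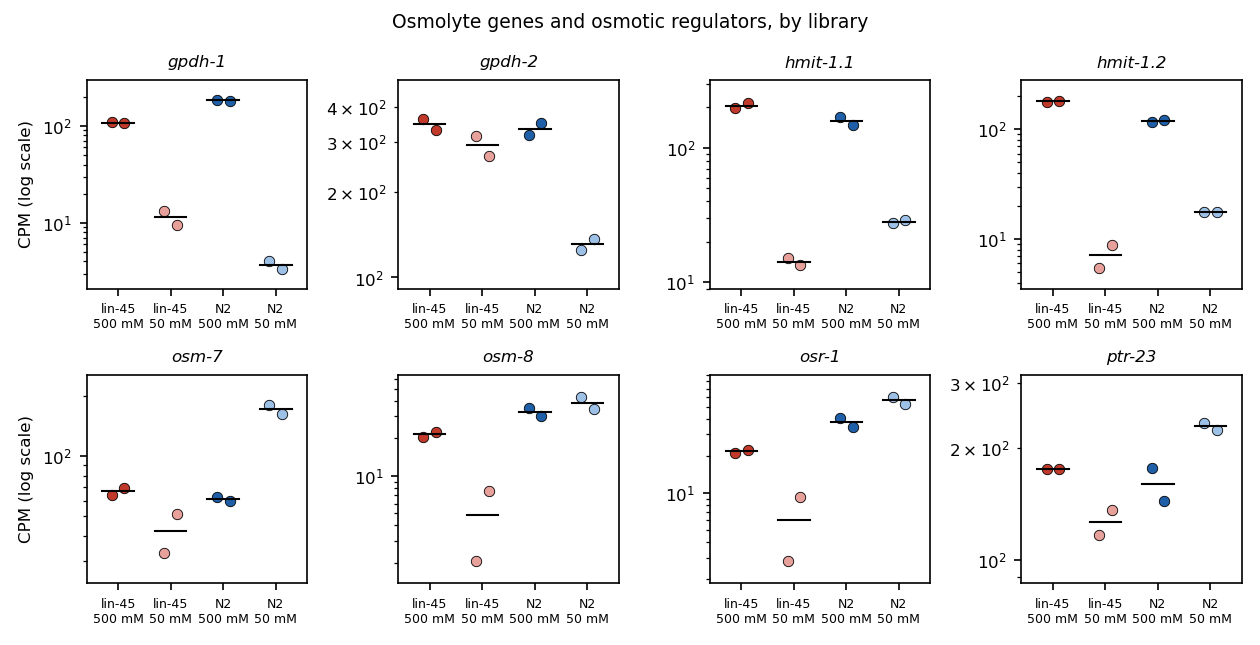
CPM (log scale) of 8 osmolyte and osmotic-response genes in each library, with groups ordered lin-45 500 mM, lin-45 50 mM, N2 500 mM and N2 50 mM. Points are libraries and bars group means; in gpdh-1 and gpdh-2 the N2 50 mM group is lowest, and in the other 6 genes the lin-45 50 mM group is lowest.

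The cuticle is a collagen coat that the embryo's epidermis secretes before hatching. The epidermis also makes a transient apical matrix of zona pellucida and leucine-rich repeat proteins. Of the 5 tested furrow collagens, 4 had a positive and 1 a negative interaction, with a list median of 1.77. dpy-7 (chromosome X, 7536413 to 7538162) had 221 and 209 CPM in lin-45 500 mM, 25.4 and 39.5 CPM in lin-45 50 mM, 316 and 353 CPM in N2 500 mM, and 169.5 and 141 CPM in N2 50 mM. dpy-2 had 188 and 190.0 CPM in lin-45 500 mM, 17 and 36.2 CPM in lin-45 50 mM, 288 and 283 CPM in N2 500 mM, and 158 and 131 CPM in N2 50 mM. dpy-3 had 179 and 179 CPM in lin-45 500 mM, 16.4 and 33.7 CPM in lin-45 50 mM, 276 and 253 CPM in N2 500 mM, and 141 and 116 CPM in N2 50 mM. In these 3 collagens lin-45 50 mM was several-fold below every other group and N2 500 mM was above all, so that salt raised each of them in both strains and more so in lin-45. The interactions were 1.62 ± 0.26 (adjusted p = 0.00751) for dpy-7, 1.84 ± 0.38 (adjusted p = 0.0129) for dpy-2, 1.79 ± 0.37 (adjusted p = 0.0126) for dpy-3 and 1.77 ± 0.39 (adjusted p = 0.0155) for dpy-10. Reads of dpy-7 can include those of glb-16, which overlaps it on the same strand. The fifth member, dpy-9, had 2.06 and 2.7 CPM in lin-45 500 mM, 10.7 and 5.81 CPM in lin-45 50 mM, 2.53 and 2.61 CPM in N2 500 mM, and 1.98 and 1.34 CPM in N2 50 mM, with lin-45 50 mM the highest group and an interaction of -2.43 ± 0.47 (adjusted p = 0.0109). Without N2 50 mM replicate 1 or without N2 500 mM replicate 2, 1 furrow collagen stayed positive, and the adjusted p of dpy-10 without N2 50 mM replicate 1 was 0.0675, that of dpy-2 0.0591 and that of dpy-3 0.0585. dpy-10, which overlaps a gene on the other strand, was also lost without lin-45 500 mM replicate 1. The interactions without lin-45 50 mM replicate 1 were 1.40 for dpy-2, 1.36 for dpy-3 and 1.32 for dpy-10, and without replicate 2 they were 2.48, 2.40 and 2.42. In the lin-45 50 mM pair the median furrow collagen was 1.04 higher on the log2 scale in replicate 2 than in replicate 1.

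Of 10 tested body-shape collagens, named for mutants with an altered shape or a helical twist, 6 had a positive and 1 a negative interaction, with a list median of 1.87. sqt-3, an abundant embryonic collagen, had 2846 and 2983 CPM in lin-45 500 mM, 388 and 1047 CPM in lin-45 50 mM, 4048 and 3614 CPM in N2 500 mM, and 5172 and 4030.4 CPM in N2 50 mM. dpy-17 had 2188 and 2129 CPM in lin-45 500 mM, 190.3 and 554 CPM in lin-45 50 mM, 3058 and 2866 CPM in N2 500 mM, and 2673 and 2056 CPM in N2 50 mM. dpy-14 had 1853 and 1762 CPM in lin-45 500 mM, 164 and 483 CPM in lin-45 50 mM, 2539 and 2533 CPM in N2 500 mM, and 2255 and 1757 CPM in N2 50 mM. All 3 were lowest in lin-45 50 mM, where the replicates also lay far apart, and the N2 groups overlapped or nearly so, with no call for salt in N2. The interaction was 2.29 ± 0.52 for sqt-3 (adjusted p = 0.0166), 2.21 ± 0.55 for dpy-17 (adjusted p = 0.0222) and 2.14 ± 0.55 for dpy-14 (adjusted p = 0.0241). Without N2 50 mM replicate 1 the adjusted p was 0.0701 for sqt-3, 0.0851 for dpy-17 and 0.0902 for dpy-14. All 3 calls were also lost without N2 500 mM replicate 2, and those of dpy-17 and dpy-14 without N2 500 mM replicate 1 or either lin-45 500 mM library. Without lin-45 50 mM replicate 1 the interaction was 1.74 for sqt-3, 1.63 for dpy-17 and 1.56 for dpy-14, and without replicate 2 it was 3.17, 3.17 and 3.11. The count of positive body-shape collagens was 0 without N2 50 mM replicate 1 and 1 without N2 500 mM replicate 2. rol-8 went the opposite way, with 0.19 and 0.0676 CPM in lin-45 500 mM, 6.42 and 4.16 CPM in lin-45 50 mM, 0.0998 and 0.253 CPM in N2 500 mM, and 0.132 and 0.125 CPM in N2 50 mM. It was near the floor of detection outside lin-45 50 mM, and its interaction of -5.68 ± 0.92 (adjusted p = 0.00772) is a fitted value that rests on few counts in the other groups and ran from -6.59 to -4.95 with 1 library left out. The call of rol-8 was lost without N2 500 mM replicate 2, and rol-8 was no longer tested without either lin-45 50 mM library.

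Of 103 tested col genes, the numbered family of cuticle collagens, 52 had a positive and 8 a negative interaction, with a median of 1.07 against -0.06 for all tested genes. Salt raised 65 and lowered 27 of them in lin-45, where it raised 33.4% and lowered 34.9% of all tested genes. In N2 it raised 18 and lowered 41 of them, against 31.4% and 32.1% of all tested genes. The number of positive col genes fell to 15 without N2 50 mM replicate 1 and to 22 without N2 500 mM replicate 2, and that of negative ones to 4 without N2 50 mM replicate 1, either N2 500 mM library or lin-45 500 mM replicate 2, and to 5 without lin-45 50 mM replicate 1. col-92 had 145 and 134 CPM in lin-45 500 mM, 50.9 and 57.1 CPM in lin-45 50 mM, 47.8 and 34.8 CPM in N2 500 mM, and 72 and 69 CPM in N2 50 mM. col-161 had 3.83 and 3.38 CPM in lin-45 500 mM, 1.48 and 2.23 CPM in lin-45 50 mM, 0.831 and 1.1 CPM in N2 500 mM, and 4.63 and 3.28 CPM in N2 50 mM. col-92 and col-161 differ from the furrow collagens in shape: their N2 500 mM libraries were the lowest. On 500 mM lin-45 exceeded N2 by 1.75 for col-92 and 1.91 for col-161 on the log2 scale. Over the list, the median of log2(CPM + 1) minus the gene's mean over the 8 libraries was instead lowest in lin-45 50 mM. This median was -0.547 and -0.369 there, and 0.09 and -0.061 in N2 500 mM. The interaction was 2.14 ± 0.27 (adjusted p = 0.0045) for col-92 and 2.98 ± 0.40 (adjusted p = 0.00541) for col-161. Counts of both were fractional in all 10 libraries. Of the 103 col genes, 17 were at least 2-fold higher in lin-45 50 mM replicate 2 than in replicate 1 and 1 the other way. Their summed level was 17528 and 17762 CPM in lin-45 500 mM and 32069 and 30764 CPM in lin-45 50 mM. It was 16192 and 14297 CPM in N2 500 mM and 31544 and 29986 CPM in N2 50 mM. The sum, unlike the list median, was thus not lowest in lin-45 50 mM.

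Proteins of the embryonic sheath and apical matrix showed the highest share of positive calls among these lists, 17 of 20 with 2 negative and a median of 1.40. All 20 rose with salt in lin-45, against 33.4% of all tested genes. In N2, 8 rose and 3 fell, against 31.4% and 32.1% of all tested genes. cut-2, a cuticlin of the insoluble cuticle layer, had 1015 and 1224 CPM in lin-45 500 mM, 327 and 629 CPM in lin-45 50 mM, 1429.8 and 1254 CPM in N2 500 mM, and 3235 and 2591 CPM in N2 50 mM. dex-1, a zona pellucida and nidogen domain protein that shapes sensory and epithelial cells, had 151 and 160.0 CPM in lin-45 500 mM, 37.9 and 56.2 CPM in lin-45 50 mM, 229 and 214 CPM in N2 500 mM, and 179.6 and 156 CPM in N2 50 mM. let-4, a leucine-rich repeat protein that keeps the excretory duct open, had 41.7 and 45.4 CPM in lin-45 500 mM, 7.16 and 7.56 CPM in lin-45 50 mM, 54 and 58.9 CPM in N2 500 mM, and 22.7 and 19.3 CPM in N2 50 mM. The 3 differ in what salt did in N2, where cut-2 fell, dex-1 was not called and let-4 rose, while lin-45 50 mM was lowest in all 3. Their interactions were 2.35 ± 0.38 (adjusted p = 0.00772), 1.32 ± 0.23 (adjusted p = 0.00875) and 1.14 ± 0.15 (adjusted p = 0.00528). mlt-10, named for a moulting defect, had 51.2 and 66.1 CPM in lin-45 500 mM, 12.7 and 30.2 CPM in lin-45 50 mM, 58.1 and 64.8 CPM in N2 500 mM, and 176 and 143 CPM in N2 50 mM, and salt raised it in lin-45 and lowered it in N2, with an interaction of 2.82 ± 0.50 (adjusted p = 0.00901), which was 2.33 without lin-45 50 mM replicate 1 and 3.58 without replicate 2. The 2 negative members, fbn-1 and let-653, both secreted matrix proteins, were named after their values were seen, and their interactions were -1.99 ± 0.44 (adjusted p = 0.0152) and -1.09 ± 0.20 (adjusted p = 0.00923). The call of fbn-1 was lost without N2 50 mM replicate 2, N2 500 mM replicate 2 or either lin-45 500 mM library, up to an adjusted p of 0.0748, and that of let-653 without lin-45 500 mM replicate 2, at 0.0568. The number of positive members fell to 7 without N2 50 mM replicate 1 and to 9 without N2 500 mM replicate 2.

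Hedgehog-related genes are a family of secreted proteins that nematodes expanded and that epidermal cells express in step with the cuticle; 28 of 43 tested members had a positive and 0 a negative interaction. Their median of 1.90 was the highest of the lists described here with at least 5 members. Salt raised 29 and lowered 7 in lin-45, against 33.4% and 34.9% of all tested genes. It raised 4 and lowered 20 in N2, against 31.4% and 32.1%. grd-1 had 13.9 and 14.4 CPM in lin-45 500 mM, 3.74 and 7.52 CPM in lin-45 50 mM, 15.2 and 15 CPM in N2 500 mM, and 37.1 and 33.9 CPM in N2 50 mM. wrt-9 had 20.2 and 23.7 CPM in lin-45 500 mM, 4.39 and 9.55 CPM in lin-45 50 mM, 28.7 and 29.6 CPM in N2 500 mM, and 53.6 and 45.7 CPM in N2 50 mM. grl-1 had 54 and 54.4 CPM in lin-45 500 mM, 13.4 and 20.5 CPM in lin-45 50 mM, 56.9 and 55 CPM in N2 500 mM, and 68 and 65.2 CPM in N2 50 mM. In each of them lin-45 50 mM was lowest and N2 50 mM highest, without overlap with the stressed groups. The interactions were 2.54 ± 0.35 (adjusted p = 0.00571) for grd-1, 2.40 ± 0.39 (adjusted p = 0.00772) for wrt-9, 1.92 ± 0.25 (adjusted p = 0.00521) for grl-1, 1.92 ± 0.29 (adjusted p = 0.00629) for grd-5 and 2.18 ± 0.36 (adjusted p = 0.00784) for grl-10. Without lin-45 50 mM replicate 1 that of grd-1 was 2.14 and that of wrt-9 1.96, and without replicate 2 they were 3.15 and 3.08. grl-1 and grl-10 each overlap a gene on the other strand. The patched-related gene ptr-16, of a family related to hedgehog receptors, had 29.3 and 37.6 CPM in lin-45 500 mM, 6.6 and 14.7 CPM in lin-45 50 mM, 39.8 and 33 CPM in N2 500 mM, and 86.1 and 68.5 CPM in N2 50 mM. The interaction of ptr-16 was 2.71 ± 0.43 (adjusted p = 0.00742), or 2.26 and 3.42 without lin-45 50 mM replicate 1 and replicate 2, and it overlaps T21H3.7 on the same strand. The count of positive hedgehog-related genes fell to 11 without N2 50 mM replicate 1, to 11 without N2 500 mM replicate 2 and to 16 without lin-45 500 mM replicate 2. In the lin-45 50 mM pair, 18 of the 43 were at least 2-fold higher in replicate 2 and 0 in replicate 1, with a median log2 ratio of 0.89.

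Astacin metalloproteases, secreted enzymes several of which process cuticle proteins, had 12 positive and 1 negative interaction among 27 tested members, with a median of 0.70. nas-7 had 47.9 and 51.5 CPM in lin-45 500 mM, 18.1 and 29.3 CPM in lin-45 50 mM, 57 and 51.6 CPM in N2 500 mM, and 81.3 and 76.4 CPM in N2 50 mM. nas-1 had 15 and 12.1 CPM in lin-45 500 mM, 5.91 and 9.28 CPM in lin-45 50 mM, 12.5 and 13.1 CPM in N2 500 mM, and 24.4 and 27.1 CPM in N2 50 mM. Both were lowest in lin-45 50 mM and highest in N2 50 mM, with interactions of 1.60 ± 0.29 (adjusted p = 0.00973) and 1.83 ± 0.33 (adjusted p = 0.0091). nas-7 overlaps C07D10.1 on the other strand. nas-14 and nas-6 had interactions of 1.89 ± 0.36 (adjusted p = 0.0104) and 1.87 ± 0.35 (adjusted p = 0.0104), and both calls were lost without N2 50 mM replicate 1, at an adjusted p of 0.0514 and 0.051. That of nas-6 was 1.48 without lin-45 50 mM replicate 1 and 2.47 without replicate 2. The count of positive astacins fell to 2 without N2 50 mM replicate 1 and to 5 without N2 500 mM replicate 2.

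Of 17 regulators and junction genes of the epidermis, 7 had a positive and 1 a negative interaction, with a median of 0.24. Their summed level was 6574 and 6711 CPM in lin-45 500 mM, 3853 and 4060 CPM in lin-45 50 mM, 7341 and 7282 CPM in N2 500 mM, and 5967 and 5619 CPM in N2 50 mM, which put lin-45 50 mM lowest without overlap. The junction genes ajm-1 and dlg-1 had interactions of 0.74 ± 0.14 (adjusted p = 0.0107) and 0.68 ± 0.15 (adjusted p = 0.0155). ajm-1 had 831 and 832 CPM in lin-45 500 mM, 309 and 369 CPM in lin-45 50 mM, 978 and 922 CPM in N2 500 mM, and 677 and 619.6 CPM in N2 50 mM. None of the defining regulators elt-1, elt-3 and lin-26 was called, and all 3 had counts in every library. The number of positive members of this list was 0 without N2 50 mM replicate 1 or N2 500 mM replicate 2, 3 without lin-45 500 mM replicate 1 and 4 without N2 50 mM replicate 2 or lin-45 50 mM replicate 1, and the adjusted p without N2 50 mM replicate 1 was 0.0543 for ajm-1 and 0.0725 for dlg-1. Both calls were also lost without N2 500 mM replicate 2, and that of dlg-1 without N2 500 mM replicate 1 or lin-45 500 mM replicate 1. In RNA of whole samples, fewer cells of a type and less RNA per cell cannot be told apart. The part of epidermal cell number in the collagen, matrix and hedgehog-related counts was not tested.

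The negative epidermal gene was nhr-23, a nuclear hormone receptor that drives collagen and moulting genes in larvae. It had 54.6 and 52.7 CPM in lin-45 500 mM, 63.7 and 49.2 CPM in lin-45 50 mM, 73.2 and 75.1 CPM in N2 500 mM, and 27.5 and 27.2 CPM in N2 50 mM. N2 50 mM was the lowest group and N2 500 mM the highest, and salt raised it in N2 and was not called in lin-45, with an interaction of -1.51 ± 0.17 (adjusted p = 0.00324). The sign for nhr-23 is opposite to that of most collagen and matrix genes.

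**Figure D3:**
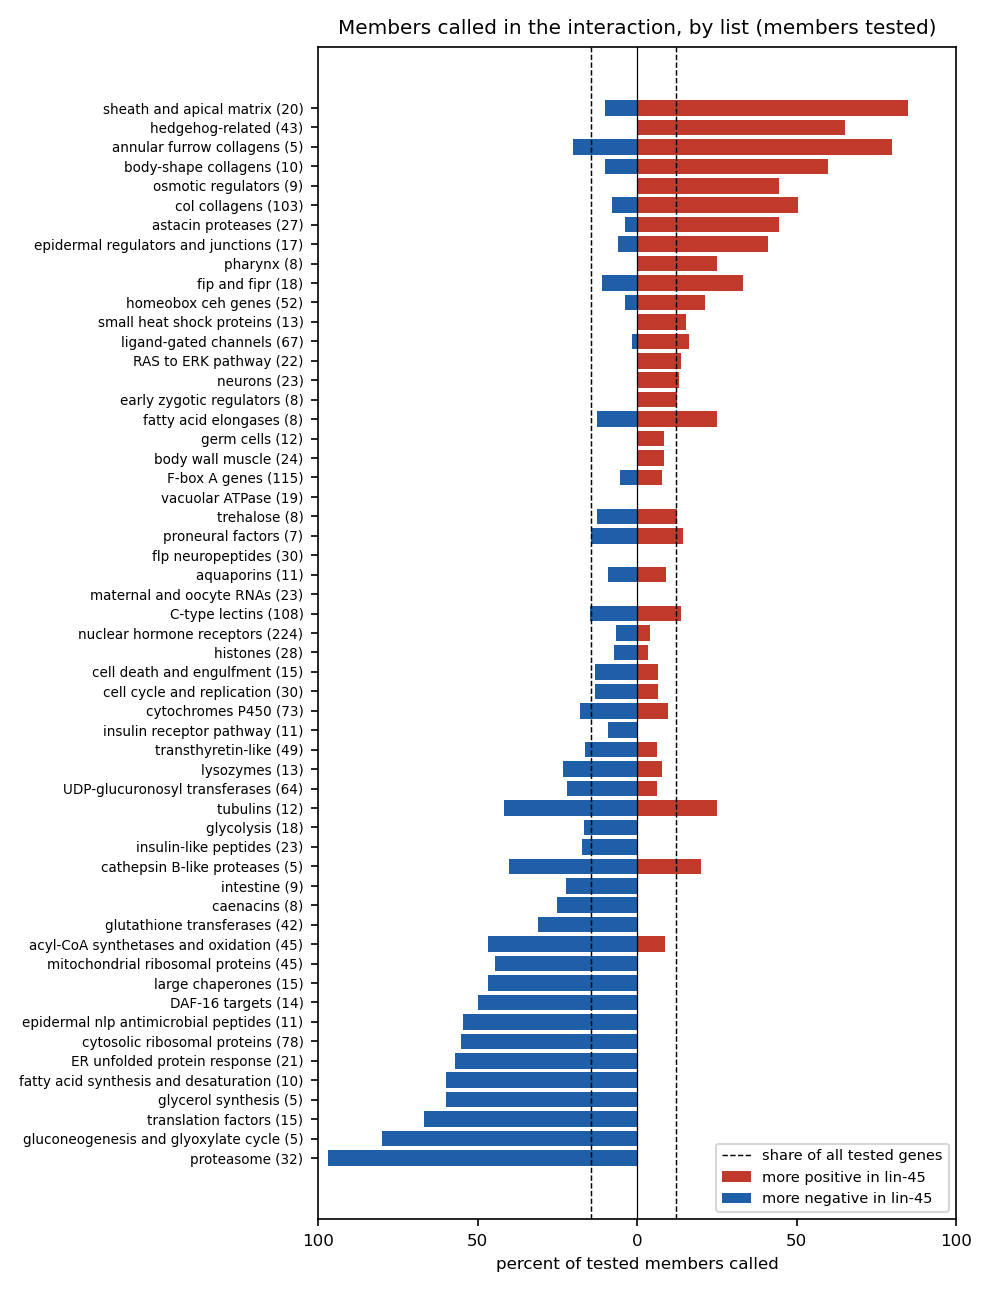
Percent of tested members called in the interaction, for each gene list with at least 5 tested members, positive to the right and negative to the left, with the number of members tested in parentheses and dashed lines at the shares of all tested genes (12.2% and 14.3%). Sheath, furrow collagen and hedgehog-related lists extend furthest to the right, and the proteasome furthest to the left.

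A few genes had by far their highest level in lin-45 50 mM. tba-8, an alpha tubulin (chromosome X, 9455429 to 9458267), had 1.05 and 0.642 CPM in lin-45 500 mM, 36.1 and 25.9 CPM in lin-45 50 mM, 0.732 and 0.927 CPM in N2 500 mM, and 0.837 and 1.03 CPM in N2 50 mM. The lin-45 50 mM libraries were far above the rest, whose ranges overlapped, and the interaction was -4.98 ± 0.47 (adjusted p = 0.0018). Among the negative col genes, col-176 had 1.11 and 1.08 CPM in lin-45 500 mM, 378 and 333 CPM in lin-45 50 mM, 1.2 and 1.18 CPM in N2 500 mM, and 19.2 and 26.8 CPM in N2 50 mM, and its interaction was -4.06 ± 0.35 (adjusted p = 0.00143). col-149 had 1.01 and 0.98 CPM in lin-45 500 mM, 125 and 69.5 CPM in lin-45 50 mM, 1.03 and 0.758 CPM in N2 500 mM, and 0.793 and 1.81 CPM in N2 50 mM. The interaction of col-149 was -6.02 ± 0.67 (adjusted p = 0.00332). In both collagens lin-45 50 mM was far above N2 50 mM, and in col-149 the other 3 groups overlapped near 1 CPM, so that its interaction rests on few counts there and ran from -6.79 to -5.55 with 1 library left out. mpst-7, a mercaptopyruvate sulfurtransferase of hydrogen sulfide metabolism, had 1.46 and 1.45 CPM in lin-45 500 mM, 17 and 13.4 CPM in lin-45 50 mM, 1.7 and 1.85 CPM in N2 500 mM, and 1.9 and 3 CPM in N2 50 mM. The interaction of mpst-7 was -2.90 ± 0.35 (adjusted p = 0.00406). nas-3, the astacin with a negative interaction, had 0.19 and 0.473 CPM in lin-45 500 mM, 6.33 and 3.5 CPM in lin-45 50 mM, 0.565 and 0.59 CPM in N2 500 mM, and 0.881 and 0.625 CPM in N2 50 mM. Its interaction of -3.51 ± 0.65 (adjusted p = 0.0101) rests on counts near the filter. It was -4.14 without lin-45 500 mM replicate 2 and -2.99 without replicate 1 of that group, and without either lin-45 50 mM library nas-3 was no longer tested. R04B5.6 had 1.68 and 1.69 CPM in lin-45 500 mM, 28.7 and 23.2 CPM in lin-45 50 mM, 6.62 and 6.62 CPM in N2 500 mM, and 15.9 and 13 CPM in N2 50 mM, so that it was also lower in lin-45 500 mM than in N2 500 mM, and its interaction was -2.82 ± 0.26 (adjusted p = 0.0018). Of 12 tubulins tested, 3 were positive (25%) and 5 negative (41.7%), against 12.2% and 14.3% of all tested genes. The positive number was 3 without lin-45 50 mM replicate 2, 0 without N2 50 mM replicate 1 and 1 without any other single library. The negative number was 3 without N2 50 mM replicate 1, N2 500 mM replicate 2 or lin-45 500 mM replicate 1, and 2 without lin-45 500 mM replicate 2. tbb-1, a beta tubulin of the embryo, had 141 and 155 CPM in lin-45 500 mM, 489.8 and 419 CPM in lin-45 50 mM, 151 and 160.2 CPM in N2 500 mM, and 254 and 249 CPM in N2 50 mM. The interaction of tbb-1 was -0.93 ± 0.15 (adjusted p = 0.00798), with lin-45 50 mM highest. Counts of tbb-1 were fractional in 7 of the 10 libraries.

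The proteasome gave the most uniform negative list. The proteasome degrades ubiquitin-tagged proteins through a barrel of PAS and PBS subunits capped by RPT and RPN subunits. Of 32 tested subunits, 31 had a negative and 0 a positive interaction, with a median of -0.76, and 31 were higher in lin-45 than in N2 on 50 mM, against 33.2% of all tested genes. rpn-1, of the cap, had 81.8 and 85.5 CPM in lin-45 500 mM, 165 and 145 CPM in lin-45 50 mM, 81.2 and 82.5 CPM in N2 500 mM, and 84.6 and 81.2 CPM in N2 50 mM. pas-4, of the barrel, had 24.9 and 24.9 CPM in lin-45 500 mM, 84.2 and 74.9 CPM in lin-45 50 mM, 24.7 and 22 CPM in N2 500 mM, and 41.3 and 44.2 CPM in N2 50 mM. rpn-8 had 50.7 and 50.4 CPM in lin-45 500 mM, 84.5 and 75.2 CPM in lin-45 50 mM, 54.3 and 59.2 CPM in N2 500 mM, and 41.2 and 41.6 CPM in N2 50 mM. In all 3 lin-45 50 mM stood above every other library; salt in N2 left rpn-1 uncalled, raised rpn-8 and lowered pas-4. The interactions were -0.87 ± 0.14 (adjusted p = 0.00683) for rpn-1, -0.81 ± 0.13 (adjusted p = 0.00784) for pas-4 and -1.11 ± 0.16 (adjusted p = 0.00593) for rpn-8. The summed level of the list was 1563 and 1576 CPM in lin-45 500 mM, 3122 and 2790 CPM in lin-45 50 mM, 1480 and 1478 CPM in N2 500 mM, and 1621 and 1674 CPM in N2 50 mM. The number of negative subunits fell to 12 without N2 50 mM replicate 1 and to 7 without lin-45 500 mM replicate 2.

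Of 15 translation factors, 10 had a negative and 0 a positive interaction, with a median of -0.50, and all 15 were higher in lin-45 than in N2 on 50 mM (11 to 15 under the other scalings, filters and tools). eef-1A.2, an elongation factor that brings aminoacyl tRNA to the ribosome, had 1631 and 1589 CPM in lin-45 500 mM, 2729 and 2390.3 CPM in lin-45 50 mM, 1473 and 1498 CPM in N2 500 mM, and 1433 and 1462 CPM in N2 50 mM. lin-45 50 mM was the highest group, the other 3 lay within a narrow band, and the interaction was -0.71 ± 0.11 (adjusted p = 0.00705). Its counts were fractional in all 10 libraries, and its near copy eef-1A.1, at -0.45 ± 0.12 (adjusted p = 0.0262), was lost without the filter, with edgeR's own filter and in 7 of the 8 settings that leave out a library, up to an adjusted p of 0.152. Of 78 cytosolic ribosomal protein genes, 43 had a negative and 0 a positive interaction, with a median of -0.45, and all 78 were higher in lin-45 than in N2 on 50 mM, a number of at least 75 under each other scaling, filter and tool. Their summed level was 75192 and 72136 CPM in lin-45 500 mM, 128736 and 114313 CPM in lin-45 50 mM, 69542 and 64525 CPM in N2 500 mM, and 79833 and 83317 CPM in N2 50 mM. Of 45 mitochondrial ribosomal protein genes, 20 were negative and 0 positive, with a median of -0.41. These counts depended on the settings. The cytosolic count was 3 to 31 under the other scalings, filters and tools, and 63 without lin-45 50 mM replicate 2 but 0 to 6 without any other single library. The mitochondrial count was 4 to 11 under the other scalings, filters and tools and 1 to 19 with 1 library left out. The number of negative translation factors was 5 with edgeR's own filter, and it fell to 2 without N2 50 mM replicate 1 or lin-45 500 mM replicate 2, to 3 without N2 500 mM replicate 2, to 5 without lin-45 500 mM replicate 1 and to 6 without lin-45 50 mM replicate 1.

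The unfolded protein response raises chaperones of the endoplasmic reticulum (ER) when proteins misfold there. Of 21 tested genes, 12 had a negative and 0 a positive interaction, with a median of -0.56, and the count was 7 without N2 50 mM replicate 1 and 4 without lin-45 500 mM replicate 2. hsp-4, the worm's inducible BiP, had 80.8 and 88.7 CPM in lin-45 500 mM, 1434 and 1178 CPM in lin-45 50 mM, 74.8 and 80.0 CPM in N2 500 mM, and 302 and 330.2 CPM in N2 50 mM. Salt lowered it to a like level in both strains, and the groups on 50 mM differed by 2.05 on the log2 scale, with an interaction of -1.92 ± 0.20 (adjusted p = 0.00277). pdi-1, a protein disulfide isomerase, had 347 and 337 CPM in lin-45 500 mM, 395 and 343 CPM in lin-45 50 mM, 377 and 398 CPM in N2 500 mM, and 218 and 198 CPM in N2 50 mM. The ER member of the HSP90 family, listed as T05E11.3, had 1201 and 1156 CPM in lin-45 500 mM, 1140.4 and 1034 CPM in lin-45 50 mM, 1357 and 1423 CPM in N2 500 mM, and 766 and 752 CPM in N2 50 mM. For these 2 genes N2 50 mM was the lowest group, salt raised them in N2 and was not called in lin-45, and the interactions were -1.01 ± 0.16 (adjusted p = 0.00697) and -0.76 ± 0.11 (adjusted p = 0.00605). T05E11.3 overlaps spo-11 on the other strand. Of 15 large chaperones of the cytosol and mitochondria, 7 were negative and 0 positive, a count that was 2 to 6 under the other scalings, filters and tools, 10 without lin-45 50 mM replicate 2 and 0 to 3 without any other single library.

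**Figure D4:**
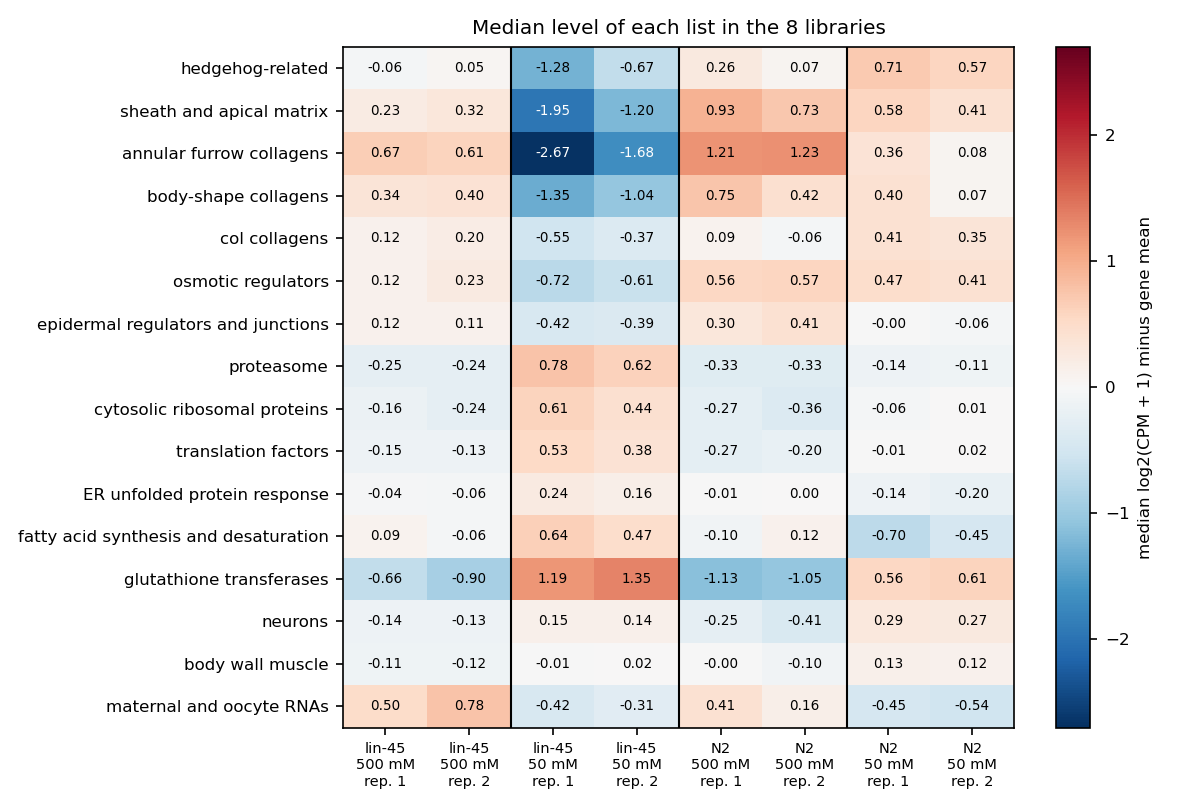
Median over the members of each list of log2(CPM + 1) minus the gene's mean over the 8 libraries, for 16 lists (rows) in the 8 libraries (columns, ordered lin-45 500 mM, lin-45 50 mM, N2 500 mM, N2 50 mM). By this median the cuticle lists are lowest and the proteasome, ribosomal and translation lists highest in the 2 lin-45 50 mM columns.

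Of 10 genes of fatty acid synthesis and desaturation, 6 had a negative and 0 a positive interaction, with a median of -0.91. Salt raised 7 and lowered 2 of the 10 in N2, against 31.4% and 32.1% of all tested genes. It raised 3 and lowered 7 in lin-45, against 33.4% and 34.9%. fasn-1, the fatty acid synthase, had 851 and 886 CPM in lin-45 500 mM, 1991 and 1791 CPM in lin-45 50 mM, 853 and 1022 CPM in N2 500 mM, and 867 and 833 CPM in N2 50 mM. fat-4, the delta-5 desaturase of polyunsaturated fatty acids, had 126 and 121 CPM in lin-45 500 mM, 207 and 179.9 CPM in lin-45 50 mM, 115 and 119 CPM in N2 500 mM, and 73.8 and 86 CPM in N2 50 mM. let-767, a steroid and long-chain fatty acid dehydrogenase, had 56 and 51.3 CPM in lin-45 500 mM, 73.7 and 66.5 CPM in lin-45 50 mM, 80.0 and 75.9 CPM in N2 500 mM, and 27.7 and 31.6 CPM in N2 50 mM. In fasn-1 and fat-4 lin-45 50 mM was highest, whereas let-767 was lowest in N2 50 mM and highest in N2 500 mM. The interactions were -1.26 ± 0.17 (adjusted p = 0.00541) for fasn-1, -1.19 ± 0.15 (adjusted p = 0.0045) for fat-4, -1.78 ± 0.13 (adjusted p = 0.0014) for let-767 and -0.82 ± 0.13 (adjusted p = 0.00772) for fat-1, the omega-3 desaturase. let-767 overlaps C56G2.7 on the same strand. The count was 4 without N2 50 mM replicate 1, without N2 500 mM replicate 2 or without lin-45 500 mM replicate 2.

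Of 8 elongases, which lengthen fatty acids, 2 were positive (25%) and 1 negative (12.5%), against 12.2% and 14.3% of all tested genes. The positive number was 2 without lin-45 500 mM replicate 2 and 1 without any other single library or with a replicate term, and the negative number 2 without N2 500 mM replicate 1. elo-6, which extends the branched-chain fatty acids worms make, had 100.2 and 90.2 CPM in lin-45 500 mM, 169 and 155 CPM in lin-45 50 mM, 109.9 and 113 CPM in N2 500 mM, and 54.6 and 60.3 CPM in N2 50 mM. The interaction of elo-6 was -1.72 ± 0.15 (adjusted p = 0.00143). elo-4 had 19.5 and 20.1 CPM in lin-45 500 mM, 3.88 and 7.46 CPM in lin-45 50 mM, 33.9 and 27.8 CPM in N2 500 mM, and 40.0 and 32.6 CPM in N2 50 mM. The interaction of elo-4 was 2.01 ± 0.35 (adjusted p = 0.00879). The pair is opposed: on 50 mM, elo-6 was above and elo-4 below N2 in lin-45, by 1.49 and -2.66 on the log2 scale. elo-4 overlaps C40H1.10 on the other strand. Of 45 acyl-CoA synthetases and oxidation genes, 21 were negative and 4 positive, with a median of -0.48. acs-4 had 148 and 145 CPM in lin-45 500 mM, 468 and 426 CPM in lin-45 50 mM, 126 and 149 CPM in N2 500 mM, and 171 and 184 CPM in N2 50 mM. The interaction of acs-4 was -1.24 ± 0.15 (adjusted p = 0.0045). cpt-2, a carnitine palmitoyltransferase of mitochondrial fatty acid import, had 197 and 189.9 CPM in lin-45 500 mM, 330.1 and 304 CPM in lin-45 50 mM, 191 and 204 CPM in N2 500 mM, and 160.0 and 180.1 CPM in N2 50 mM. The interaction of cpt-2 was -0.93 ± 0.12 (adjusted p = 0.00471). Both were highest in lin-45 50 mM without overlap. acs-3 was positive at 1.73 ± 0.24 (adjusted p = 0.00561), with 4.36 ± 0.74 CPM in lin-45 50 mM (SD, n = 2) against 19.2 ± 1.47 CPM in N2 50 mM. The positive count was 1 without N2 50 mM replicate 1 or N2 500 mM replicate 2. The negative count was 13 with edgeR's own filter, 10 without N2 50 mM replicate 1, 10 without N2 500 mM replicate 2, 12 without lin-45 500 mM replicate 1 and 6 without lin-45 500 mM replicate 2. Markers of the intestine, where worms store fat, had 0 positive and 2 negative interactions among 9 members (22.2%, against 14.3% of all tested genes), or 1 negative without N2 50 mM replicate 1. Their summed level was 3725 and 3670 CPM in lin-45 500 mM, 7881 and 7436 CPM in lin-45 50 mM, 3051 and 2623 CPM in N2 500 mM, and 4796 and 5310 CPM in N2 50 mM. The gut esterase ges-1 was among them, with an interaction of -1.26 ± 0.16 (adjusted p = 0.00492), and elt-2, the regulator that defines the intestine, was not called. The part of intestinal RNA in the lipid counts was not tested.

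Of 18 glycolysis genes, 3 were negative and 0 positive (16.7% against 14.3% of all tested genes), among them hexokinase hxk-1, listed as F14B4.2, at -0.70 ± 0.10 (adjusted p = 0.00626). The negative count was 1 without N2 50 mM replicate 1 or lin-45 500 mM replicate 2, and 2 or 3 without any other single library. Of 5 genes of gluconeogenesis and the glyoxylate cycle, 4 were negative and 0 positive, a count of 1 without N2 50 mM replicate 1, 2 without N2 500 mM replicate 2 or lin-45 500 mM replicate 1, and 0 without lin-45 500 mM replicate 2. The positive count was 1 with DESeq2 and with each other scaling, filter or library set. C05E4.9, the bifunctional glyoxylate cycle gene icl-1, had 2892 and 2957 CPM in lin-45 500 mM, 675 and 725 CPM in lin-45 50 mM, 3265 and 3266 CPM in N2 500 mM, and 551 and 579 CPM in N2 50 mM. Salt raised it by 2.06 in lin-45 and 2.53 in N2 on the log2 scale, and the interaction of -0.47 ± 0.10 (adjusted p = 0.0142) was lost without any of the 4 libraries N2 50 mM replicate 1, N2 500 mM replicate 2, and lin-45 500 mM replicate 1 and 2, up to an adjusted p of 0.0815. tre-2, a trehalase, which splits the sugar trehalose, had 33.4 and 31.1 CPM in lin-45 500 mM, 80.4 and 78.4 CPM in lin-45 50 mM, 32.4 and 28.5 CPM in N2 500 mM, and 36.5 and 37.9 CPM in N2 50 mM, with lin-45 50 mM highest and an interaction of -1.01 ± 0.13 (adjusted p = 0.00471).

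Some of the smallest p-values belonged to single genes outside these pathways. asp-4, a cathepsin D-like aspartic protease of the lysosome, had 292 and 261 CPM in lin-45 500 mM, 199 and 166 CPM in lin-45 50 mM, 299.8 and 311 CPM in N2 500 mM, and 57.3 and 54.4 CPM in N2 50 mM. Salt raised it by 2.45 in N2 and by 0.60 in lin-45, and the interaction was -1.85 ± 0.14 (adjusted p = 0.0014). swt-7, of the SWEET family of sugar transporters, had 61.4 and 55.2 CPM in lin-45 500 mM, 271 and 246 CPM in lin-45 50 mM, 71.2 and 65 CPM in N2 500 mM, and 93.5 and 97.1 CPM in N2 50 mM. The interaction of swt-7 was -1.66 ± 0.13 (adjusted p = 0.0014). F57H12.6 had 1.71 and 1.22 CPM in lin-45 500 mM, 195 and 190.4 CPM in lin-45 50 mM, 2.03 and 1.94 CPM in N2 500 mM, and 46.8 and 46.5 CPM in N2 50 mM. Both swt-7 and F57H12.6 were highest in lin-45 50 mM and lay close together in the 2 stressed groups, and the interaction of F57H12.6 was -2.48 ± 0.20 (adjusted p = 0.00143). nhr-12, a nuclear hormone receptor, had 8.94 and 8.55 CPM in lin-45 500 mM, 36.3 and 39.8 CPM in lin-45 50 mM, 84.7 and 75.6 CPM in N2 500 mM, and 114 and 108 CPM in N2 50 mM, with lin-45 below N2 on both salt levels and further below on 500 mM, and an interaction of -1.65 ± 0.13 (adjusted p = 0.0014).

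Detoxification enzymes oxidise foreign and fatty compounds or attach glutathione or sugars to them. Of 42 glutathione transferases, 13 were negative and 0 positive, with a median of -0.57. gst-5 had 225 and 198 CPM in lin-45 500 mM, 1701 and 1699 CPM in lin-45 50 mM, 139 and 153 CPM in N2 500 mM, and 656 and 623 CPM in N2 50 mM. gst-24 had 21.4 and 19.9 CPM in lin-45 500 mM, 121 and 105 CPM in lin-45 50 mM, 17.6 and 20.9 CPM in N2 500 mM, and 42.9 and 49.4 CPM in N2 50 mM. Salt lowered both in both strains, lin-45 50 mM was the highest group, and the interactions were -0.88 ± 0.13 (adjusted p = 0.00623) and -1.19 ± 0.19 (adjusted p = 0.00772). gst-5 overlaps nos-1 on the other strand. The negative count was 8 without the filter or with edgeR's own filter, 3 without N2 50 mM replicate 1, 5 without lin-45 500 mM replicate 2, 7 without N2 500 mM replicate 2 and 8 without N2 50 mM replicate 2, lin-45 50 mM replicate 1, N2 500 mM replicate 1 or lin-45 500 mM replicate 1. Of 73 cytochromes P450, 13 were negative and 7 positive (17.8% and 9.59%), near the shares of 14.3% and 12.2% of all tested genes. Of 64 UDP-glucuronosyl transferases, 14 were negative and 4 positive (21.9% and 6.25%), against the same 14.3% and 12.2%. The numbers were 13 and 7 with upper-quartile factors, where 8.24% of all tested genes were negative and 15.9% positive. They were 15 and 11 with the 8 libraries alone, where these shares were 13.5% and 22.5%. These numbers were 5 and 1 for the cytochromes and 9 and 2 for the transferases without N2 50 mM replicate 1. The cytochromes also had 8 and 4 without lin-45 50 mM replicate 1, 6 negative without lin-45 500 mM replicate 2, 4 positive without N2 500 mM replicate 1 or lin-45 500 mM replicate 1, and 2 positive without N2 500 mM replicate 2. The positive transferases were also 2 without N2 500 mM replicate 2 or lin-45 500 mM replicate 1, and 7 without lin-45 50 mM replicate 2. cyp-13A5 had 4.44 and 3.72 CPM in lin-45 500 mM, 783 and 671 CPM in lin-45 50 mM, 2.69 and 2.23 CPM in N2 500 mM, and 127 and 151 CPM in N2 50 mM. The interaction of cyp-13A5 was -1.67 ± 0.24 (adjusted p = 0.0062), and its neighbour cyp-13A6 one of -1.95 ± 0.31 (adjusted p = 0.00772). cyp-13B1 had 115 and 114 CPM in lin-45 500 mM, 94.7 and 83.9 CPM in lin-45 50 mM, 118 and 126 CPM in N2 500 mM, and 50.9 and 50.6 CPM in N2 50 mM, lowest in N2 50 mM, with an interaction of -0.90 ± 0.11 (adjusted p = 0.00466). ugt-33 had 1.58 and 1.59 CPM in lin-45 500 mM, 38.8 and 33.1 CPM in lin-45 50 mM, 5.62 and 4.72 CPM in N2 500 mM, and 22.7 and 19.9 CPM in N2 50 mM. The interaction of ugt-33 was -2.46 ± 0.20 (adjusted p = 0.00143), whereas ugt-46 was positive at 0.76 ± 0.11 (adjusted p = 0.00561).

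Of 11 epidermal nlp antimicrobial peptides, which the epidermis secretes after infection, wounding or osmotic stress, 6 were negative and 0 positive, with a median of -0.94, and 4 to 6 were negative with 1 library left out. nlp-32 had 68.2 and 47.6 CPM in lin-45 500 mM, 15.4 and 13.4 CPM in lin-45 50 mM, 65.7 and 97.9 CPM in N2 500 mM, and 2.86 and 2.62 CPM in N2 50 mM. Salt raised it in both strains, and on 50 mM lin-45 exceeded N2 by 2.39 on the log2 scale. The interaction was -2.89 ± 0.42 (adjusted p = 0.00623). nlp-31 had 103 and 87.5 CPM in lin-45 500 mM, 164 and 166 CPM in lin-45 50 mM, 93.1 and 127 CPM in N2 500 mM, and 66.8 and 69.2 CPM in N2 50 mM, highest in lin-45 50 mM, with an interaction of -1.48 ± 0.19 (adjusted p = 0.00521). nlp-27 and nlp-34 had interactions of -1.13 ± 0.18 (adjusted p = 0.00772) and -1.24 ± 0.21 (adjusted p = 0.00798). nlp-27, nlp-31 and nlp-34 lie close together on chromosome V, between 3978810 and 3989755, and their counts were fractional in 5 to 9 of the 10 libraries. The number of positive nlp peptides was 1 under each of the 7 other scalings, filters, library sets, tools and the replicate term, and without lin-45 50 mM replicate 2. Of 108 C-type lectins, 15 were positive and 16 negative (13.9% and 14.8%), close to the shares of 12.2% and 14.3% of all tested genes. These numbers were 17 and 9 with edgeR's own filter, 19 and 15 with the 8 libraries alone, and 5 and 4 without N2 50 mM replicate 1. Whichever library was left out, 4 to 10 were negative, and the positive number was also 7 without N2 500 mM replicate 2, 8 without lin-45 500 mM replicate 1 and 9 without N2 50 mM replicate 2. clec-1 had 8.11 and 6.55 CPM in lin-45 500 mM, 58.6 and 44.1 CPM in lin-45 50 mM, 14.1 and 15.6 CPM in N2 500 mM, and 15.3 and 17.9 CPM in N2 50 mM. The interaction of clec-1 was -2.64 ± 0.25 (adjusted p = 0.00217), and clec-78 had 9.41 and 9.76 CPM in lin-45 500 mM, 0.323 and 0.893 CPM in lin-45 50 mM, 12.3 and 11.5 CPM in N2 500 mM, and 4.19 and 4.31 CPM in N2 50 mM. The interaction of clec-78 was 2.42 ± 0.37 (adjusted p = 0.00683), or 1.93 and 3.38 without lin-45 50 mM replicate 1 and replicate 2. The 2 lectins are opposed in lin-45 50 mM, where clec-1 was at its highest and clec-78 at its lowest level. The metallothionein mtl-1, a metal-binding target of the transcription factor DAF-16, had 502 and 393 CPM in lin-45 500 mM, 36.2 and 40.0 CPM in lin-45 50 mM, 501 and 483 CPM in N2 500 mM, and 10.8 and 12.4 CPM in N2 50 mM. The interaction of mtl-1 was -1.85 ± 0.30 (adjusted p = 0.00792).

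A second shape of positive interaction had its low point in N2 500 mM. This held for 271 of the 1801 positive genes; salt lowered 265 of them in N2, and in lin-45 it lowered 131 and raised 16. Their median salt effect was -0.31 in lin-45 and -1.29 in N2, and 127 of the 271 were called higher in lin-45 than in N2 on 500 mM. Of all tested genes 4.84% were, but the choice of the 271 favours that direction, so the 2 shares are not a test. This shape held for 76 genes without N2 50 mM replicate 1, without N2 500 mM replicate 2 for 86, without N2 50 mM replicate 2 for 108, without lin-45 500 mM replicate 1 for 119 and without lin-45 50 mM replicate 1 for 121. K08D8.4 (chromosome IV, 12907444 to 12909974) had 17.6 and 20.0 CPM in lin-45 500 mM, 20.2 and 23.1 CPM in lin-45 50 mM, 1.43 and 1.85 CPM in N2 500 mM, and 12.7 and 12.3 CPM in N2 50 mM. cpr-3, a cathepsin B-like cysteine protease, had 17.3 and 16 CPM in lin-45 500 mM, 80.1 and 69.5 CPM in lin-45 50 mM, 0.698 and 0.674 CPM in N2 500 mM, and 14.8 and 19.4 CPM in N2 50 mM. dod-19, named as a gene downstream of DAF-16, had 73.8 and 73.2 CPM in lin-45 500 mM, 152 and 155 CPM in lin-45 50 mM, 17.5 and 18.7 CPM in N2 500 mM, and 132 and 133 CPM in N2 50 mM. In all 3 genes the N2 500 mM libraries stood alone at the low end, and the strains differed on 500 mM by 3.52, 4.59 and 2.02 on the log2 scale. The interactions were 2.73 ± 0.21 (adjusted p = 0.0014) for K08D8.4, 2.46 ± 0.25 (adjusted p = 0.0024) for cpr-3 and 1.81 ± 0.16 (adjusted p = 0.00143) for dod-19. bath-47, a BTB and MATH domain gene, had 28 and 26 CPM in lin-45 500 mM, 14.4 and 16.7 CPM in lin-45 50 mM, 8.31 and 7.79 CPM in N2 500 mM, and 21.3 and 22.3 CPM in N2 50 mM, so that it was highest in lin-45 500 mM, and its interaction was 2.23 ± 0.17 (adjusted p = 0.0014). pqn-60, R05H10.1 and C34H4.2 shared this shape, with interactions of 2.39 ± 0.24 (adjusted p = 0.00232), 2.00 ± 0.21 (adjusted p = 0.00277) and 1.36 ± 0.14 (adjusted p = 0.00254). pqn-60 overlaps R11G11.6 on the same strand and C34H4.2 overlaps K03H6.6 on the other strand.

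**Figure D5:**
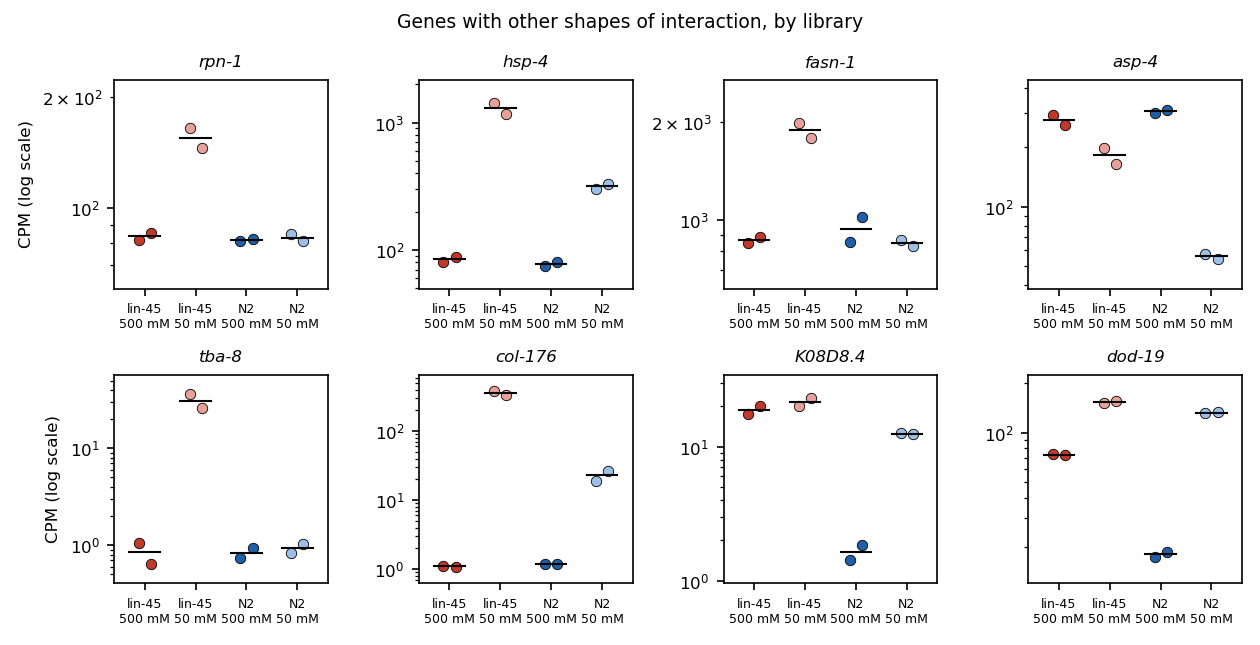
CPM (log scale) of 8 genes in each library, with groups ordered lin-45 500 mM, lin-45 50 mM, N2 500 mM and N2 50 mM; points are libraries and bars group means. rpn-1, hsp-4, fasn-1, tba-8 and col-176 are highest in lin-45 50 mM, asp-4 is lowest in N2 50 mM, and K08D8.4 and dod-19 are lowest in N2 500 mM.

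Salt was called in both strains in opposite directions for 202 genes that were higher in lin-45 and lower in N2, and for 125 with the reverse. This split moved with the settings, to 243 and 87 with RLE factors, 287 and 63 with upper-quartile factors, 349 and 47 without the filter, 347 and 53 with edgeR's own filter, 411 and 134 with the 8 libraries alone and 238 and 70 with DESeq2. Among the first, ptr-16, mlt-10 and col-180 are cuticle or patched-related genes. col-180 had 47.5 and 45.9 CPM in lin-45 500 mM, 11.6 and 19.4 CPM in lin-45 50 mM, 40.9 and 28.6 CPM in N2 500 mM, and 96.3 and 80.4 CPM in N2 50 mM. The interaction of col-180 was 2.92 ± 0.37 (adjusted p = 0.00466). ztf-16, a zinc finger factor, had 68.2 and 72.6 CPM in lin-45 500 mM, 32.1 and 39.5 CPM in lin-45 50 mM, 78.9 and 78.7 CPM in N2 500 mM, and 117 and 108 CPM in N2 50 mM. The interaction of ztf-16 was 1.49 ± 0.16 (adjusted p = 0.00277). Both were lowest in lin-45 50 mM and highest in N2 50 mM, and their stressed groups lay between. Among the 125, F37H8.5, which resembles a lysosomal thiol reductase, had 36.7 and 35 CPM in lin-45 500 mM, 75.2 and 65.8 CPM in lin-45 50 mM, 43.2 and 49.4 CPM in N2 500 mM, and 14.8 and 14 CPM in N2 50 mM and the interaction with 1 of the smallest p-values, -2.66 ± 0.15 (adjusted p = 0.000795). ZK1307.1 had 21.4 and 19.5 CPM in lin-45 500 mM, 51.9 and 45.9 CPM in lin-45 50 mM, 24.8 and 27.5 CPM in N2 500 mM, and 12.8 and 14.3 CPM in N2 50 mM, and far-6, a secreted fatty acid and retinol binding protein, had 9.03 and 9.05 CPM in lin-45 500 mM, 18.8 and 16.3 CPM in lin-45 50 mM, 10.6 and 9.86 CPM in N2 500 mM, and 5.64 and 5.28 CPM in N2 50 mM. In these 3 genes lin-45 50 mM was highest, N2 50 mM lowest and the stressed groups between them. The interactions were -2.20 ± 0.19 (adjusted p = 0.00143) for ZK1307.1 and -1.86 ± 0.18 (adjusted p = 0.00224) for far-6, which overlaps pqn-74 on the other strand. With 1 library left out, the 2 numbers lay between 57 and 396 and between 22 and 121: the lowest pairs were 57 and 41 without N2 50 mM replicate 1 and 58 and 42 without N2 500 mM replicate 2.

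For other tissues and stages the counts depended on the settings. Of 24 body wall muscle genes, 2 were positive (8.33%) and 0 negative, of 23 neuronal genes 3 (13.0%) and 0, of 8 pharynx genes 2 (25%) and 0, of 12 germ cell genes 1 (8.33%) and 0, and of 8 early zygotic regulators 1 (12.5%) and 0, where 12.2% of all tested genes were positive. With the 8 libraries alone the positive numbers were 6 for muscle, 16 for neurons, 5 for the pharynx, 4 for germ cells and 1 for early zygotic regulators, where 22.5% of all genes tested in that setting were positive. The number of positive neuronal genes was 5 with RLE factors, 7 with DESeq2, 9 with upper-quartile factors, 10 without the filter and 11 with edgeR's own filter, and the number for muscle was 4 with edgeR's own filter. The positive numbers were 1 for muscle and 0 for neurons, the pharynx, germ cells and early zygotic regulators without N2 50 mM replicate 1. Those of neurons, the pharynx and germ cells were also 0 without N2 50 mM replicate 2, lin-45 50 mM replicate 1 or either N2 500 mM library. Without lin-45 500 mM replicate 1 the pharynx and germ cells had 0 and neurons 1, neurons also had 1 without lin-45 500 mM replicate 2, the pharynx 1 without lin-45 50 mM replicate 2 and muscle 1 without N2 500 mM replicate 2. None of 23 maternal and oocyte RNAs was called in either direction, although their median was 0.18; edgeR gave 1 of them an unadjusted p under 0.05, DESeq2 called 0, and the 8 libraries alone gave 1 positive. The defining genes hlh-1 of muscle, unc-119 of neurons, pha-4 of the pharynx and mex-3 of the early embryo were counted in every library, and none was called. unc-45, a myosin chaperone of muscle, had 186 and 199 CPM in lin-45 500 mM, 144 and 164 CPM in lin-45 50 mM, 218 and 215 CPM in N2 500 mM, and 304 and 281 CPM in N2 50 mM. The interaction of unc-45 was 0.75 ± 0.13 (adjusted p = 0.00858). Of 67 ligand-gated channels, which include acetylcholine receptors, 11 were positive (16.4%) and 1 negative (1.49%). The shares of all tested genes were 12.2% and 14.3%. lgc-21 had 67.6 and 68.6 CPM in lin-45 500 mM, 27.1 and 54.5 CPM in lin-45 50 mM, 69.2 and 57.1 CPM in N2 500 mM, and 171 and 161 CPM in N2 50 mM. The interaction of lgc-21 was 2.13 ± 0.38 (adjusted p = 0.00901), or 1.71 and 2.71 without lin-45 50 mM replicate 1 and replicate 2. Of 52 homeobox ceh genes, 11 were positive (21.2%) and 2 negative (3.85%), and ceh-32, a SIX-class factor of the head, had an interaction of 0.76 ± 0.14 (adjusted p = 0.00945). Of 224 nuclear hormone receptors, 9 were positive and 15 negative, or 4.02% and 6.70%, both below the shares of all tested genes. With the 8 libraries alone the positive numbers were 21 for the channels, 22 for the ceh genes and 39 for the receptors. Leaving out N2 50 mM replicate 1 gave positive numbers of 2 for the channels, 2 for the ceh genes and 2 for the receptors, and leaving out N2 500 mM replicate 2 gave 2, 3 and 3. With any 1 library left out, the negative numbers were 0 for the channels, 0 to 2 for the ceh genes and 5 to 9 for the receptors. The positive numbers were also 7, 6 and 4 without N2 50 mM replicate 2, 5, 4 and 5 without lin-45 50 mM replicate 1, and 4, 4 and 5 without lin-45 500 mM replicate 1, and the ceh genes had 4 without N2 500 mM replicate 1. The negative number of receptors was 7 to 9 under every other scaling, filter or tool, and 14 with the 8 libraries alone.

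Of 22 genes from RAS to ERK, the pathway in which LIN-45 acts, 3 had a positive and 0 a negative interaction. This share of 13.6% is near the 12.2% of all tested genes. The positive count was 4 with RLE factors or without the filter, 5 with upper-quartile factors, 7 with edgeR's own filter and 8 with the 8 libraries alone, and the range over the list was -0.23 to 0.79. The 3 genes were gap-2 and gap-3, which encode RAS GTPase-activating proteins, and dep-1, which encodes a receptor tyrosine phosphatase. gap-3 had 25 and 28.4 CPM in lin-45 500 mM, 15.9 and 20.0 CPM in lin-45 50 mM, 28.5 and 28.1 CPM in N2 500 mM, and 34.1 and 31.7 CPM in N2 50 mM. The interaction of gap-3 was 0.79 ± 0.17 (adjusted p = 0.0152). gap-2 and dep-1 had interactions of 0.41 ± 0.12 (adjusted p = 0.0381) and 0.49 ± 0.13 (adjusted p = 0.0249). lin-45 50 mM was the lowest group for gap-3. The positive count of this list was 0 without N2 50 mM replicate 1 or N2 500 mM replicate 2 and 1 without lin-45 50 mM replicate 1 or lin-45 500 mM replicate 1. Without N2 50 mM replicate 1 the adjusted p was 0.0677 for gap-3, 0.13 for gap-2 and 0.101 for dep-1, and without N2 500 mM replicate 2 it was 0.0591, 0.134 and 0.093. gap-2 and dep-1 were also lost without lin-45 50 mM replicate 1 or lin-45 500 mM replicate 1, gap-2 without N2 50 mM replicate 2 and dep-1 without N2 500 mM replicate 1. Of 11 genes of the insulin receptor pathway, 0 were positive and 1 negative (9.09%), against 12.2% and 14.3% of all tested genes. The negative count was 0 without lin-45 500 mM replicate 2, and the positive count was 2 with the 8 libraries alone. Of 30 cell cycle and replication genes, 2 were positive and 4 negative (6.67% and 13.3%, against 12.2% and 14.3% of all tested genes), with a median of -0.75. The negative count was 19 with the 8 libraries alone and 1 with edgeR's own filter. It was 3 without lin-45 50 mM replicate 2 and 0 without any other single library, and the positive count was 0 or 1 whichever library was left out. The mitotic kinase air-2 had 12.4 and 14.5 CPM in lin-45 500 mM, 12.4 and 11.7 CPM in lin-45 50 mM, 14.6 and 16.6 CPM in N2 500 mM, and 4.54 and 5.03 CPM in N2 50 mM, with N2 50 mM lowest. Its interaction of -1.54 ± 0.40 (adjusted p = 0.0258) was called in 1 of the 8 settings that leave out a library.

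The calls were not spread evenly over chromosomes. Of the 2168 tested genes on the X chromosome, 18.5% had a positive and 8.49% a negative interaction, with a median of 0.13, while the median over the other chromosomes was -0.10. Chromosome III stood at the other end, with 8.45% positive and 19.1% negative. The chromosome shares are those of the main fit and were not computed under the other settings. Several cuticle genes named above lie on X, among them dpy-7, dpy-3, grd-1 and wrt-9, but their share in the X count was not tested. The share of genes called differed by level: 5.96% of genes with a mean under 1 CPM passed, 13.7% of those with 1 to 10 CPM, 33.2% with 10 to 100 CPM, 38.3% with 100 to 1000 CPM and 44.8% above 1000 CPM. The median standard error was 0.68 under 1 CPM, 0.36 at 1 to 10 CPM, 0.17 at 10 to 100 CPM, 0.13 at 100 to 1000 CPM and 0.14 above, so an interaction of a low gene that was not called may have been too small to detect. Depth was not varied, and its part in these shares was not tested.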

How the data were processed

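RNA of the 8 libraries (4 groups of 2) was analysed from the authors' deposited table of 45461 genes on build ce10. Per the file headers, the table gives for each library an RSEM expected count that is not normalized, and this was used here. Per the file headers, the authors also deposited FPKM values, their log2 values after adding 1, and each gene's mean and variance of those log2 values, none of which was tested here. DESeq 1.10.1, bedtools 2.25.0, RSEM 1.2.15 and BWA 0.6.1 are named in the submitters' processing notes. The role of each tool, the annotation, and whether counting used strand are not given in the sources used. Of the nonzero expected counts 59.9% were whole within 1e-06, and all were rounded.

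Genes with at least 1 CPM in at least 2 of the 10 libraries were kept (14802 genes, at least 99.89% of each library's counts). edgeR 4.0.16 in R 4.3.3 was fitted with TMM factors (0.923 to 1.08) and 1 mean for each of the 5 groups, so that the 10 libraries share 1 estimate of the spread: 5 residual degrees of freedom and a prior with a median of 3.65, and a common coefficient of variation of 13.1%. The fifth group, N2 embryos of parents grown on 300 mM, enters only that estimate, the scaling and the filter. The interaction and the 4 simple contrasts were tested with two-sided quasi-likelihood F tests, adjusted by Benjamini-Hochberg, at a threshold of 0.05. The fit was run on simulated counts with known changes. These counts were drawn independently for each gene and library. They therefore do not check the fit against a shift shared by many genes of a library. In a simple contrast, an exact permutation of 2 against 2 libraries could not reach that threshold. No permutation was run for the interaction. Each call, of either kind, rests on the spread pooled over genes and groups. Errors of log2 values are standard errors derived from the test, as the absolute log2 value divided by the square root of its F statistic.

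Alternatives were RLE and upper-quartile factors, no filter, edgeR's filterByExpr, the 8 libraries alone, DESeq2 1.42.0, a replicate term and leaving out each library. List counts and opposite salt calls under every alternative, and group patterns without each library, were added after the data were seen. The 57 gene lists and their members were chosen with earlier results of these data known, and 8 of their names did not match the table. Named genes include gpdh-1, gpdh-2 and lin-45. Of called genes with at least 10 CPM in their highest group, the 12 most positive and 12 most negative were named. From the same genes came the 8 smallest p-values and 8 most abundant in each direction. The 6 most extreme with opposite salt calls in each direction were also taken from them. Up to 5 called members per list with the smallest p-values were named without that minimum of 10 CPM. Markers named as not called were chosen by their role. For 8 genes a missing or shared name was replaced by the sequence name, 141 genes have counts identical to another gene's, and 3957 tested genes (26.7%) overlap another gene model. Roles are background knowledge, and F44E7.2, T05E11.3, F14B4.2 and C05E4.9 were matched to gene names in RefSeq.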

Additional observations from a re-analysis of the deposited data

Results flagged for a closer look

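The salt effect differed between lin-45 and N2 in 3912 genes by the test of the difference itself, the interaction in edgeR's quasi-likelihood fit. Among them, 202 genes were called higher on 500 mM in lin-45 and lower in N2, and 125 lower in lin-45 and higher in N2.

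The 6 most positive of the first set with at least 10 CPM in a group were Y48G8AL.12 (3.15), col-180 (2.92), Y53F4B.25 (2.89), C30H6.5 (2.86), mlt-10 (2.82) and ptr-16 (2.71), given as log2 interactions. All 6 had a mean in lin-45 50 mM below that in N2 50 mM, by 2.50 to 3.96 on the log2 scale, and none was called between the strains on 500 mM, where Y48G8AL.12 differed most, by -0.81. Y48G8AL.12 had 6.56 and 6.38 CPM in lin-45 500 mM, 0.6 and 1.85 CPM in lin-45 50 mM, 10.2 and 12.5 CPM in N2 500 mM, and 20.8 and 19.5 CPM in N2 50 mM. It overlaps Y48G8AL.1 on the other strand, and Y53F4B.25 overlaps Y53F4B.26 likewise.

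The 6 most negative of the second set were F23D12.11 (-3.32), F37H8.5 (-2.66), M60.7 (-2.60), C42D4.2 (-2.28), ZK1307.1 (-2.20) and far-6 (-1.86). F23D12.11 had 4.44 and 4.96 CPM in lin-45 500 mM, 14.2 and 12.1 CPM in lin-45 50 mM, 5.65 and 6.28 CPM in N2 500 mM, and 1.41 and 1.88 CPM in N2 50 mM, and it overlaps fipr-3 on the other strand. M60.7 had 5.77 and 3.78 CPM in lin-45 500 mM, 12 and 9.86 CPM in lin-45 50 mM, 5.45 and 4.76 CPM in N2 500 mM, and 2.07 and 1.78 CPM in N2 50 mM. C42D4.2 had 8.94 and 9.15 CPM in lin-45 500 mM, 11.8 and 12.1 CPM in lin-45 50 mM, 12.3 and 12.9 CPM in N2 500 mM, and 3.44 and 3.41 CPM in N2 50 mM. In F23D12.11 and M60.7 lin-45 50 mM was highest and N2 50 mM lowest, and in C42D4.2 N2 50 mM was lowest while N2 500 mM was highest. The strains were not called different on 500 mM for any of these 6 genes in edgeR's fit.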

How the results depend on the processing

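The number of genes called in the interaction stayed within 1.5 times of 3912 under the other scalings, filters and tools (3341 to 5300), and ranged over 787 to 3824 with 1 library left out. The number called between the strains on 500 mM was 2175 with the 8 libraries alone and 240 to 1175 with 1 library left out, and that on 50 mM 5188 to 7723. The median interaction of all tested genes moved by over 0.1, to 0.04 with upper-quartile factors, 0.07 without the filter, 0.09 with edgeR's own filter, 0.08 with the 8 libraries and 0.09 without lin-45 500 mM replicate 2, against -0.06, and no gene called both there and here changed sign. Of the 78 cytosolic ribosomal protein genes, 3 to 31 were negative under the other scalings, filters and tools, against 43. Of the 19 vacuolar ATPase genes, 0 were called, against 15 positive with the 8 libraries alone. Of the 250 genes of the naming rule, 117 were called in all 8 settings that leave out a library and 213 under all 7 others. With a replicate block 2928 genes were called (1501 positive), but the numbers do not pair the samples: the correlation of same-numbered deviations ran from -0.207 to 0.147 over the group pairs, and the block result is no measure of a weaker effect. The cause of these changes was not tested. Low genes had larger standard errors, with a median of 0.68 under 1 CPM and 0.17 at 10 to 100 CPM, and 5.96% and 33.2% of them were called.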
